A study of Mus musculus with 27 samples.

Results

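The ATP-binding cassette (ABC) transporter genes of the mouse were followed through 3 subcellular RNA fractions of 3 cell types. They were taken as the protein-coding genes of the deposited read-count table whose symbol in the GENCODE mouse annotation begins with one of Abca to Abcg and a digit, which gave 50 of the 37332 genes in the table. Of these, 44 held enough reads to be tested, beside 18226 genes tested in all. Abca12, Abca15, Abcb11, Abcc9, Abcg5 and Abcg8 were not tested and held 90, 8, 45, 53, 31 and 28 counts over all 27 libraries. By known role the 50 genes held 4 soluble ribosome and translation factors, 3 mitochondrial, 3 peroxisomal and 6 lysosomal or endosomal transporters. They also held 10 transporters of sterols, phospholipids or bile and 12 exporters of drugs and organic anions. The rest were 2 regulators of ATP-sensitive potassium (KATP) channels and 10 less characterised members.

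The series asked how RNA is distributed inside cells along neuronal differentiation. The mESC groups were the E14 embryonic stem cell line, kept on gelatin with leukemia inhibitory factor. The mNPC groups were a neural progenitor line established in the submitters' laboratory and given EGF and FGF daily at 10 ng/ml in B27 medium without vitamin A. The mCtx groups were primary cortical neurons on poly-L-lysine after 5 days in culture, with the sample type E15D5, which the labels do not spell out. Each cell type was split into chromatin, nucleoplasm and cytoplasm, each with 3 libraries that the labels call biological replicates, which makes 9 groups. No genetic change and no drug is named for any group, and the stem cells and the progenitors are each 1 line. Polyadenylated RNA longer than 200 nt was read, so the chromatin and nucleoplasm libraries hold polyadenylated transcripts found in those fractions, and how pure the fractions were was not tested.

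ABC transporters bind and split ATP in paired nucleotide-binding domains and use that energy to move a substrate across a membrane through their transmembrane domains. The A and G subfamilies are known for moving cholesterol and phospholipids, B and C for drugs, peptides, bile salts and conjugated anions, and D for fatty acyl-CoA and cobalamin. The E and F subfamilies keep the ATP-binding domains but have no transmembrane domain and act on ribosomes. In brain the family is known for drug efflux at the blood-brain barrier and for cholesterol traffic between glia and neurons.

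The promoters of 4 members are shown because these genes differ in how many groups expressed them: Abce1 and Abcd3 had a mean of at least 1 transcript per 1000000 (TPM) in 9 of the 9 groups, Abca8b in 5 and Abca16 in 1. Each is the stretch of 250 bases before the RefSeq gene start in GRCm38.p6, read 5′ to 3′ on the gene's strand, with the dinucleotide CG in capitals. Abce1 lies on the minus strand of chromosome 8 (chr8:79711741-79711990), Abcd3 on the minus strand of chromosome 3 (chr3:121815303-121815552), Abca8b on the minus strand of chromosome 11 (chr11:109995846-109996095) and Abca16 on the plus strand of chromosome 7 (chr7:120409397-120409646).
Abce1: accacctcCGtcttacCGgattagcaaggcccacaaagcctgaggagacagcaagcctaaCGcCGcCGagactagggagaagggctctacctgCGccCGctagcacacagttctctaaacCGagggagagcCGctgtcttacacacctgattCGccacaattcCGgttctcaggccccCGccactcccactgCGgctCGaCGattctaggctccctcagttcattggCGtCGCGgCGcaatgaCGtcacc
Abcd3: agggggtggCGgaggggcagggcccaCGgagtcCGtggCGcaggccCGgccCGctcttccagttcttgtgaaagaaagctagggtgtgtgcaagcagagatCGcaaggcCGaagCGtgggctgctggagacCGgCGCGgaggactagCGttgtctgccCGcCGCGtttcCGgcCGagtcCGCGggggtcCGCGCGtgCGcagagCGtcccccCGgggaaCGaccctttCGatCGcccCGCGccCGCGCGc
Abca8b: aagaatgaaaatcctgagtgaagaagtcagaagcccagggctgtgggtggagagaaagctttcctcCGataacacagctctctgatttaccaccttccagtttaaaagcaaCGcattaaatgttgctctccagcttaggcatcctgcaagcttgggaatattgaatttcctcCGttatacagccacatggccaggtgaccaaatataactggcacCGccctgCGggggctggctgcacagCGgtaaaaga
Abca16: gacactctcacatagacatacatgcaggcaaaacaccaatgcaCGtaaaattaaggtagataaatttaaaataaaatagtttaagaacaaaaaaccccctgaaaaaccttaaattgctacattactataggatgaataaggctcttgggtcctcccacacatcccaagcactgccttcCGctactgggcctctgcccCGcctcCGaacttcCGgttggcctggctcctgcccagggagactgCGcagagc
The Abcd3 promoter held 34 CG dinucleotides, a number reached by 3.53% of all 32851 promoters in the RefSeq table, and the Abce1 promoter held 20, reached by 17.9%. Abca8b and Abca16 held 6 each, reached by 50.4%. The table held a promoter for 38 of the 50 members, and 36 of these started within 1000 bases of the start in the count table. Those 36 had a median of 13 CG dinucleotides (range 1 to 35) against 6 over all promoters. Within them the median was 17 (3 to 34) for the 11 members with a mean TPM of at least 1 in all 9 groups, 13 (1 to 35) for 15 members reaching it in some groups, and 7 (3 to 17) for the 10 that reached it in none. These counts describe sequence only, and no test was made on them.

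The libraries held 10622897 to 24537526 counts on genes, of which mitochondrially encoded genes took 0.0321% to 11.7%, most in nucleoplasm (3.84% to 11.7%). Correlations between replicates of a group on the log scale were 0.971 to 0.991 in mESC and 0.987 to 0.995 elsewhere, and the mESC libraries numbered 1 stood apart from the other mESC libraries. Values without them are given for the named calls that their removal, singly or together, ended. By summed levels the labelled cell types matched their markers. In mESC cytoplasm 5 of 5 stem cell markers summed to 4589 to 5082 counts per 1000000 (CPM). In the cytoplasm of the other cell types they summed to 1.28 to 2.67 CPM. The 5 progenitor markers summed to 3033 to 3572 CPM in mNPC cytoplasm against 922 to 1378 CPM in mCtx and 604 to 619.5 CPM in mESC. Of these, Sox2 was not higher in mNPC than in mESC (means of 536 and 563 CPM). The 6 neuronal markers summed to 5092 to 5561 CPM in mCtx cytoplasm against 701 to 834 CPM in mNPC. The mNPC sum came mostly from Map2, at a mean of 720.1 CPM against 1101 CPM in mCtx. Neurod6 was at 0 in mNPC chromatin and nucleoplasm. The 6 markers of the oligodendrocyte lineage, none of them at 0, summed to 2735 to 2858 CPM in mNPC cytoplasm against 264 to 316 CPM in mCtx and 5.36 to 12.8 CPM in mESC. The 6 microglial markers summed to 58.1 to 105 CPM in mESC cytoplasm, 28.4 to 32.5 in mNPC and 55.2 to 63.1 in mCtx, mostly from Cx3cr1 (means of 84.1, 30.2 and 48.3 CPM), with C1qa and C1qb at 0 in mESC and mNPC. The 6 fibroblast and mural markers summed to 9.35 to 9.81 CPM in mCtx cytoplasm, 7.4 to 8.75 CPM in mESC and 0.596 to 0.732 CPM in mNPC. Dcn was at 0 in mESC cytoplasm, and Col1a2 and Dcn were at 0 in mNPC cytoplasm.

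By summed TPM, chromatin held the most ABC transporter RNA and cytoplasm the least in each cell type. The summed TPM of the 50 genes was 1171 ± 20.0 in mESC chromatin, 869 ± 25.7 in mESC nucleoplasm and 713 ± 73.2 in mESC cytoplasm (SD, n = 3 libraries in each group). In mNPC it was 1634 ± 56.8, 681 ± 60.9 and 472 ± 56.3, and in mCtx 1985 ± 20.9, 733 ± 31.6 and 372 ± 30.1, in the same order of fractions. On that scale the median of all genes also lay above 0 for chromatin, by 0.80, 0.76 and 0.59 over cytoplasm and by 0.61, 0.89 and 0.59 over nucleoplasm in mESC, mNPC and mCtx. By counts, the members took 0.235% to 0.265% of mESC chromatin and 0.231% to 0.278% of mESC nucleoplasm, which overlap, and 0.148% to 0.171% of mESC cytoplasm. The leading genes also differed. The soluble factors led mESC cytoplasm, with Abcf2 at 198 ± 43.9, Abcf1 at 175 ± 26.6 and Abce1 at 174 ± 15.9 TPM (SD, n = 3), whose spreads overlap. The anion exporter Abcc5 led chromatin of mNPC at 520.2 ± 30.5 TPM and of mCtx at 677 ± 19.7 TPM, far above the next member, Abca2, at 155 ± 13.2 and 201 ± 16.4 TPM. In mNPC cytoplasm the highest means were those of the peroxisomal Abcd3 at 75.9 ± 9.7 and of Abcf1 at 70.2 ± 12.2 TPM, whose spreads overlap. In mCtx cytoplasm Abcf1 at 46 ± 6.28 and Abcc5 at 42.5 ± 4.96 TPM did not differ beyond their spread. In all, 22 to 34 of the 50 members had a mean of at least 1 TPM in a group.

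**Figure D1:**
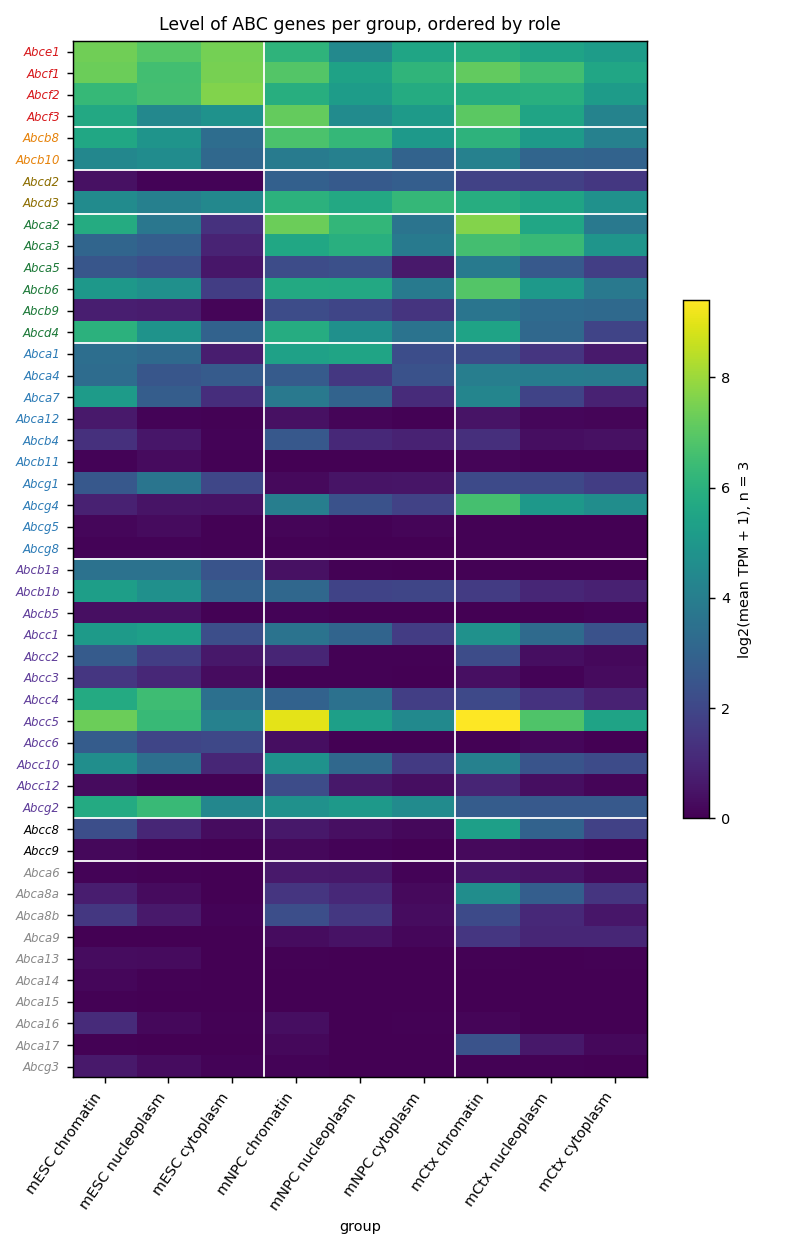
Mean TPM of ABC transporter genes (rows, ordered by role) in the 9 groups of 3 libraries (columns), as log2(mean TPM + 1) in colour. Abcc5 has the brightest cells of the map, in mNPC and mCtx chromatin, and most sterol, bile and less characterised members stay near 0.

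Relative to the other RNA of each library, transcripts of most ABC membrane transporters were higher in chromatin and in nucleoplasm than in cytoplasm in mESC, and those of a smaller number were in mNPC and mCtx. The soluble factors were not higher in mESC or mNPC, except Abcf3 on deposited TPM. A gene was called when its edgeR quasi-likelihood adjusted p (Benjamini-Hochberg over all genes tested) was under 0.05 and its fitted log2 fold change at least 1 in size. Between chromatin and cytoplasm, 30 members were called higher in chromatin and 4 lower in mESC, beside 34.4% and 21.6% of all genes tested. In mNPC 16 were higher and 1 lower, beside 27.5% and 21.3% of all genes, and in mCtx 19 were higher and 0 lower, beside 26.2% and 24.4%. The median log2 fold change over the 44 members was 2.37, 0.79 and 0.97 in the 3 cell types, and over all genes tested 0.37, 0.12 and 0.00. Between nucleoplasm and cytoplasm, 30 members were higher and 3 lower in mESC, beside 27.5% and 8.95% of all genes. There 21 were higher and 0 lower in mNPC, beside 16.4% and 8.56%, and 18 were higher and 0 lower in mCtx, beside 11.7% and 9.57%. Medians over members were 2.27, 1.49 and 0.80 and over all genes 0.04, -0.04 and 0.00. Both comparisons use the same cytoplasm libraries, and each library is scaled to its own content, so these are ratios of shares and not of molecules per cell.

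The counts by role follow, without a test between roles. Of the 34 tested membrane transporters outside mitochondria and peroxisomes, 29 were higher in chromatin than in cytoplasm in mESC, 16 in mNPC and 18 in mCtx, and none was lower. Of the 3 peroxisomal members none was called in any cell type by counts. All 4 soluble factors were lower in mESC, none was called in mNPC and 1 was higher in mCtx. On deposited TPM Abcf3 was higher in mESC and mNPC and Abcf1 was higher in mCtx. Of the 3 mitochondrial members 1 was higher in mESC, 1 lower in mNPC and none called in mCtx by the main count fit. In mCtx Abcb8 was called higher with DESeq2 (1.02), with library totals as the scaling (1.24) and on deposited TPM (1.95). On TPM Abcb8 in mNPC (1.70) and Abcb10 in mESC (1.15) and mCtx (1.13) were called higher too. The medians of all genes were 0.80, 0.76 and 0.59 on that scale in mESC, mNPC and mCtx. The lysosomal members were higher in 5, 3 and 4 of 6, and the sterol, phospholipid and bile transporters in 4, 2 and 3 of 6 tested. The drug and anion exporters were higher in 12, 7 and 6 of 12, and the less characterised members in 7, 4 and 4 of 9 tested. In nucleoplasm the same counts were 6, 6 and 5 lysosomal, 5, 2 and 3 sterol, 10, 6 and 2 drug exporters and 6, 5 and 4 less characterised members.

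**Figure D2:**
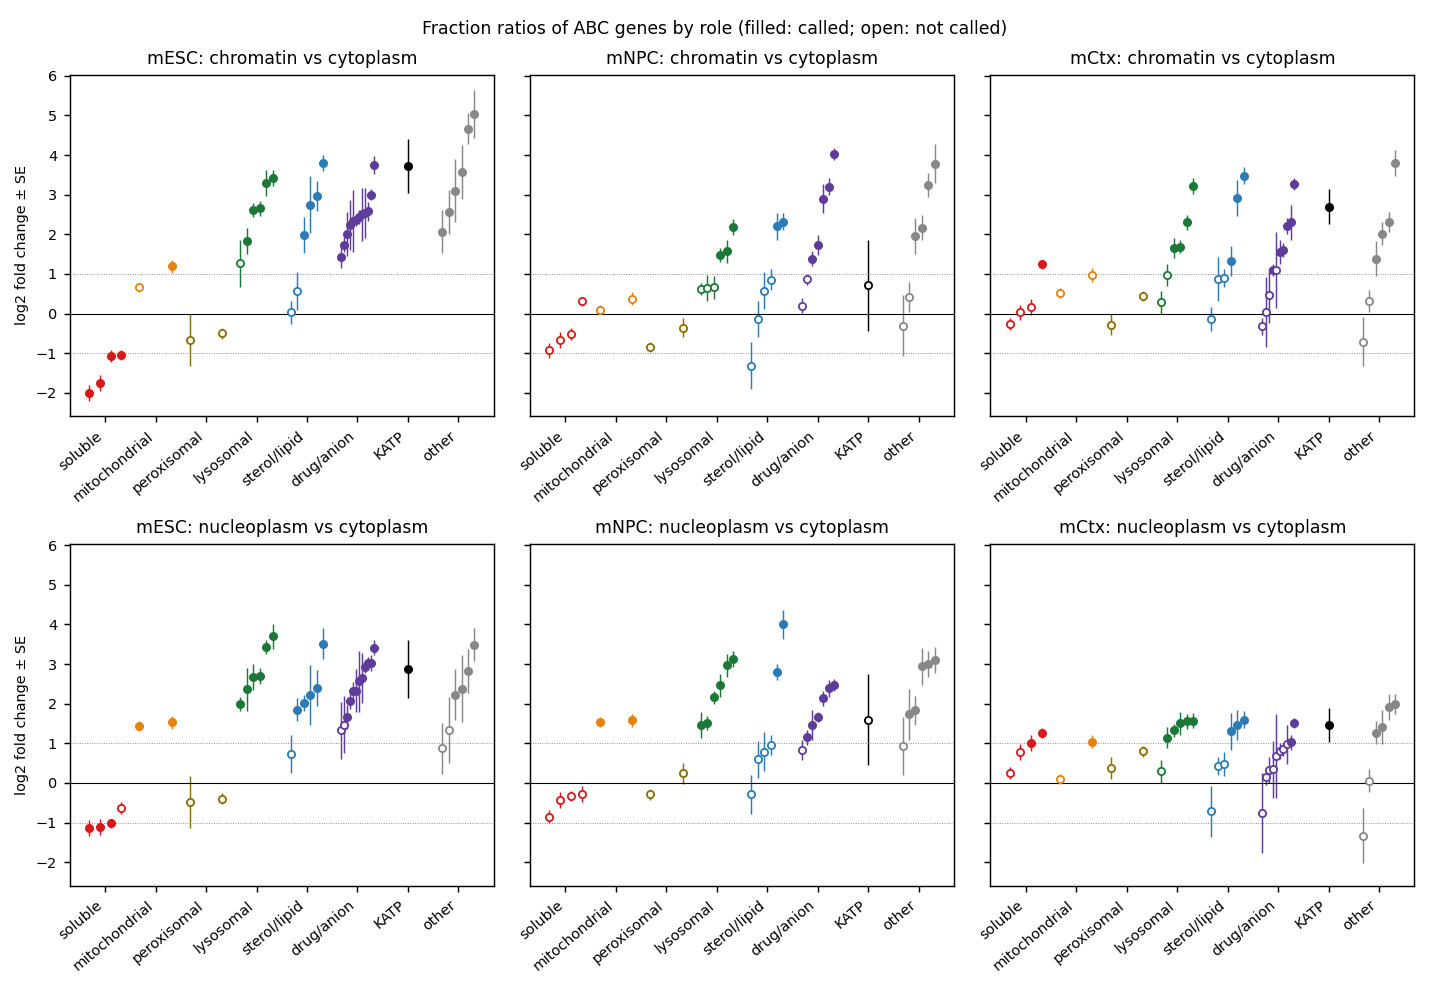
Log2 fold change of tested members between chromatin and cytoplasm and between nucleoplasm and cytoplasm in mESC, mNPC and mCtx, by role, with bars of 1 SE; filled points are called and members with a compared group at or under 3 counts are left out. In mESC chromatin Abcf2 lies at -2.0, and the drug and anion exporters lie above 0.

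The soluble factors act where proteins are made: Abce1 splits ribosomes after termination, and Abcf1, Abcf2 and Abcf3 are translation-linked ATPases. In mESC, Abce1 stood at 264, 269.6 and 253 CPM in chromatin and at 465, 555 and 635 CPM in cytoplasm. The groups did not overlap, and the edgeR log2 fold change was -1.07 ± 0.15 (SE, adjusted p = 7.2e-07). Abcf2 stood at 78.8, 109 and 121 CPM in mESC chromatin and at 272, 476 and 490.3 CPM in cytoplasm; its log2 change was -2.0 ± 0.20 (adjusted p = 1.4e-09) and the lowest of the family. Abcf1 stood at 91, 125 and 165 CPM against 311, 466 and 507 CPM, a change of -1.75 ± 0.20 (adjusted p = 2.2e-08). The library numbered 1 was the lowest in each of these 4 groups of Abcf1 and Abcf2. Abcf3 stood at 28.4, 31.8 and 36.2 CPM in mESC chromatin against 61.6, 66 and 71.4 CPM in cytoplasm, a change of -1.05 ± 0.12 (adjusted p = 1.3e-08). Without the mESC chromatin library numbered 1 the Abcf3 change was -0.96 and no longer called, and with library totals as the scaling it was -0.53, with Abce1 at -0.54. On the deposited TPM values Abcf3 was higher in mESC chromatin than in cytoplasm by 0.89 on the log2(TPM + 1) scale, Abcf1 stood at -0.20 and Abce1 at -0.08; the median of all genes was 0.80 on that scale. Abcf1 kept its call with library totals and lost it on TPM, and Abcf2 kept its call under each alternative run.

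The same genes had other values in the later cell types. In mNPC the chromatin-to-cytoplasm log2 fold changes of Abce1, Abcf1, Abcf2 and Abcf3 were -0.51 ± 0.15, -0.93 ± 0.20, -0.66 ± 0.20 and 0.31 ± 0.12 (SE), none of them called. Abcf1 was called lower there with a filter of at least 1 CPM in 3 libraries (-1.05) and in a fit of only the libraries compared (-1.03). On deposited TPM Abcf3 was called higher in mNPC chromatin, by 2.07, and Abcf1 in mCtx chromatin, by 1.60. The medians of all genes were 0.76 and 0.59 on that scale. In mCtx, Abcf3 stood at 75.2, 75.6 and 81.2 CPM in chromatin and at 30.8, 32.9 and 34.7 CPM in cytoplasm, which was higher by 1.24 ± 0.12 (edgeR adjusted p = 6.3e-10). In the nucleoplasm of mCtx it stood at 76.7, 78.9 and 80.1 CPM, a change of 1.26 ± 0.12 (adjusted p = 4.0e-09) over cytoplasm. So Abcf3 was lower in chromatin than in cytoplasm in mESC and higher in mCtx, without overlap of libraries in either. Abcf1 was higher in mCtx nucleoplasm (206, 208 and 225 CPM) than in cytoplasm (92, 111 and 115 CPM) by 1.00 ± 0.20 (adjusted p = 1.8e-04), and this call was lost, at 0.92, with library totals as the scaling. In mESC nucleoplasm Abcf1, Abcf2 and Abcf3 were lower than in cytoplasm, at -1.12 ± 0.20, -1.13 ± 0.20 and -1.02 ± 0.12, and with library totals these values were -0.89, -0.90 and -0.80 and not called. Without the mESC nucleoplasm library numbered 1, Abcf1 and Abcf2 both stood at -0.99, and without the one numbered 2 Abcf3 stood at -0.99, none of them called. The Abcf1 gene (chr17:35956819-35969761, minus strand) also holds the microRNA gene Mir877 on the same strand.

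The mitochondrial members described here are Abcb8 and Abcb10. Abcb10 is tied to heme synthesis, and Abcb8 is a transporter of the inner membrane. Abcb8 stood at 97.6, 80.2 and 90.0 CPM in mNPC chromatin, 247, 224 and 144 CPM in nucleoplasm and 81, 59.6 and 64.9 CPM in cytoplasm. By CPM nucleoplasm was highest for Abcb8 in mNPC, with a log2 fold change of 1.58 ± 0.17 over cytoplasm (SE, edgeR adjusted p = 9.6e-09). By deposited TPM the order was chromatin at 105 ± 6.91, nucleoplasm at 75.6 ± 15.1 and cytoplasm at 31.8 ± 6.07 (SD, n = 3). For nucleoplasm over cytoplasm the count fit gave 1.53 ± 0.17 in mESC and 1.04 ± 0.17 in mCtx, the last of which dropped to 0.96 with library totals. Abcb10 stood at 76.9, 76.2 and 54.1 CPM in mNPC nucleoplasm against 24.6, 22.7 and 23.9 CPM in cytoplasm (1.54 ± 0.13), and at 73.6, 69.8 and 81.2 against 28.2, 28.9 and 26.2 CPM in mESC (1.43 ± 0.12). In mCtx Abcb10 was at 27.7, 24.9 and 27.6 CPM in nucleoplasm and 22.7, 26.6 and 25.5 CPM in cytoplasm, where the libraries overlapped and the change was 0.10 ± 0.12.

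The peroxisomal members import fatty acyl-CoA for beta-oxidation, Abcd2 very long chains and Abcd3 branched chains. Neither of these was called between any pair of fractions in any cell type by counts, and on deposited TPM Abcd3 was higher in mCtx chromatin than in cytoplasm, by 1.10 (limma adjusted p = 2.8e-08). For Abcd2 the chromatin-to-cytoplasm log2 fold changes were -0.66 ± 0.65, -0.35 ± 0.25 and -0.28 ± 0.27 (SE, edgeR) in mESC, mNPC and mCtx, the first from means under 1 CPM, and Abcd3 gave -0.49 ± 0.14, -0.85 ± 0.13 and 0.45 ± 0.13.

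The lysosomal and endosomal members include Abca2 and Abca3, which load lipids into lysosome-related compartments, Abcb6, a porphyrin transporter, Abcb9, a peptide transporter, and Abcd4, which serves lysosomal cobalamin export. Abca2 stood at 278, 252 and 321 CPM in mNPC chromatin, 628, 587 and 398 CPM in nucleoplasm and 78.6, 48.8 and 58.3 CPM in cytoplasm. The 3 fractions did not overlap, and nucleoplasm exceeded cytoplasm by 3.12 ± 0.20 (SE, edgeR adjusted p = 1.2e-12). Abca2 was also higher in chromatin than in cytoplasm, by 3.42 ± 0.21 in mESC, 2.19 ± 0.20 in mNPC and 2.30 ± 0.20 in mCtx. Abcb6 stood at 71.8, 50.5 and 49.4 CPM in mESC nucleoplasm and at 5.89, 4.97 and 5.07 CPM in cytoplasm, a change of 3.43 ± 0.18 (adjusted p = 7.8e-15). Abca5 stood at 32.5, 17.5 and 14.8 CPM in mESC nucleoplasm and 2.43, 1.52 and 1.11 CPM in cytoplasm, a change of 3.70 ± 0.32 (adjusted p = 1.9e-10). The library numbered 1 was the highest of its group for Abca5 in each mESC fraction, and nucleoplasm and cytoplasm did not overlap. Abcb9 was called in nucleoplasm of mESC (2.36 ± 0.54) and mNPC (1.47 ± 0.33) and in no chromatin comparison with cytoplasm.

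Among the sterol, phospholipid and bile transporters, Abca1 loads cholesterol and phospholipid onto apolipoproteins and had the highest nucleoplasm ratio of the family in mNPC. It stood at 527, 425 and 379 CPM in mNPC nucleoplasm, 159.7, 131 and 90.7 CPM in chromatin and 39.9, 24.2 and 18.6 CPM in cytoplasm. Nucleoplasm exceeded cytoplasm by 4.0 ± 0.37 (SE, edgeR adjusted p = 1.2e-09), without overlap of any 2 fractions. In mESC, Abca1 stood at 104, 32.2 and 52.4 CPM in nucleoplasm and 6.11, 3.33 and 7.1 CPM in cytoplasm, a change of 3.51 ± 0.39 (adjusted p = 1.8e-08), with the library numbered 1 highest in nucleoplasm. Abca7, a lipid transporter linked to Alzheimer's disease, was higher in chromatin than in nucleoplasm in mESC and mCtx (1.79 ± 0.19 and 1.88 ± 0.20) and stood at -0.48 ± 0.19 in mNPC. It stood at 104, 120.3 and 98.9 CPM in mESC chromatin, 38.5, 30.1 and 24.7 CPM in nucleoplasm and 5.6, 9.43 and 8.04 CPM in cytoplasm, and chromatin exceeded cytoplasm by 3.80 ± 0.21 (adjusted p = 2.8e-14). In mCtx, Abca7 stood at 50.2, 59 and 58.4 CPM in chromatin, 12.5, 17.8 and 15.3 CPM in nucleoplasm and 4.44, 4.98 and 5.56 CPM in cytoplasm. Its mCtx fractions kept this order without overlap, with 3.48 ± 0.21 for chromatin (adjusted p = 1.5e-13) and 1.60 ± 0.21 for nucleoplasm (adjusted p = 7.1e-07) over cytoplasm. By counts the cholesterol exporter Abcg4 was not called between these fractions in any cell type (0.57 ± 0.48, 0.86 ± 0.26 and 0.90 ± 0.23 for chromatin over cytoplasm). Its deposited TPM was 15.1 ± 2.17 in mNPC chromatin and 2.64 ± 0.428 in cytoplasm (SD, n = 3). In mCtx it was 99.1 ± 3.39 and 23.2 ± 3.33. The medians of all genes were 0.76 and 0.59 for chromatin over cytoplasm on the log2(TPM + 1) scale. Abcg1 was called over cytoplasm only in mESC nucleoplasm (1.85 ± 0.30) by counts. Chromatin was lower than nucleoplasm for Abcg1 in mESC (-1.82 ± 0.29) and, with libraries that overlap, in mNPC (-2.10 ± 0.59).

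All 12 drug and organic anion exporters were higher in chromatin than in cytoplasm in mESC, beside 34.4% of all genes tested. Abcc5, which moves cyclic nucleotides and other organic anions, stood at 717, 630.2 and 627 CPM in mNPC chromatin, 105, 134 and 142 CPM in nucleoplasm and 41.8, 36.4 and 42.6 CPM in cytoplasm. Chromatin exceeded cytoplasm by 4.03 ± 0.15 (SE, edgeR adjusted p = 1.4e-17), the largest such change in mNPC among members with more than 3 counts in each group. In mCtx, Abcc5 stood at 888, 901 and 942 CPM in chromatin against 86, 94.1 and 103 CPM in cytoplasm, a change of 3.27 ± 0.14 (adjusted p = 3.6e-16), and in mESC the change was 3.00 ± 0.14. Abcc10, a broad drug exporter, stood at 62.7, 47.5 and 62.5 CPM in mNPC chromatin and 7.19, 5.45 and 6.11 CPM in cytoplasm, a change of 3.2 ± 0.21 (adjusted p = 3.6e-13). The gene overlaps Dlk2 on the opposite strand, and whether strand was used in counting is not given in the sources used here. Abcc1 and Abcc4, exporters of glutathione conjugates and of cyclic nucleotides, were higher in nucleoplasm than in cytoplasm of mESC by 3.41 ± 0.19 and 3.03 ± 0.14. The breast cancer resistance protein gene Abcg2 was higher in chromatin than in cytoplasm in mESC (1.74 ± 0.19) and stood at 0.20 ± 0.19 in mNPC and -0.32 ± 0.21 in mCtx.

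The KATP regulator Abcc8, the sulfonylurea receptor, was higher in mCtx chromatin than in cytoplasm by 2.70 ± 0.44 and in mCtx nucleoplasm by 1.45 ± 0.43 (SE, edgeR). Less characterised members gave the highest mESC values. Abca16 stood at 15.1, 9.13 and 7.02 CPM in mESC chromatin, 2.94, 0.856 and 0.667 CPM in nucleoplasm and 0.442, 0.169 and 0.349 CPM in cytoplasm. The fractions did not overlap, and chromatin exceeded cytoplasm by 5.03 ± 0.61 (adjusted p = 1.4e-07). Abca8b, whose promoter is shown above beside that of Abca16, stood at 8.28, 7.26 and 6.84 CPM in mESC chromatin and at 0, 0.395 and 0.408 CPM in cytoplasm, a change of 4.67 ± 0.40 (adjusted p = 8.8e-11). In mNPC, Abca8b stood at 13.4, 15.6 and 15.5 CPM in chromatin, 11.2, 12.2 and 14.3 CPM in nucleoplasm and 2.02, 1.43 and 1.12 CPM in cytoplasm, so chromatin and nucleoplasm overlapped and both lay above cytoplasm (3.24 ± 0.31 and 3.00 ± 0.32). Abca17 stood at 18.4, 19.4 and 20.7 CPM in mCtx chromatin, 6.1, 5.89 and 4.02 CPM in nucleoplasm and 1.23, 1.31 and 1.64 CPM in cytoplasm, which gave the highest chromatin value in mCtx (3.79 ± 0.33, adjusted p = 8.9e-11). Nucleoplasm of mCtx exceeded cytoplasm for Abca17 by 1.92 ± 0.32 (adjusted p = 2.2e-05). Abca8a stood at 16.5, 14.6 and 15.2 CPM in mCtx nucleoplasm and 3.75, 2.77 and 5.02 CPM in cytoplasm, a change of 2.00 ± 0.25 (adjusted p = 4.2e-07).

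**Figure D3:**
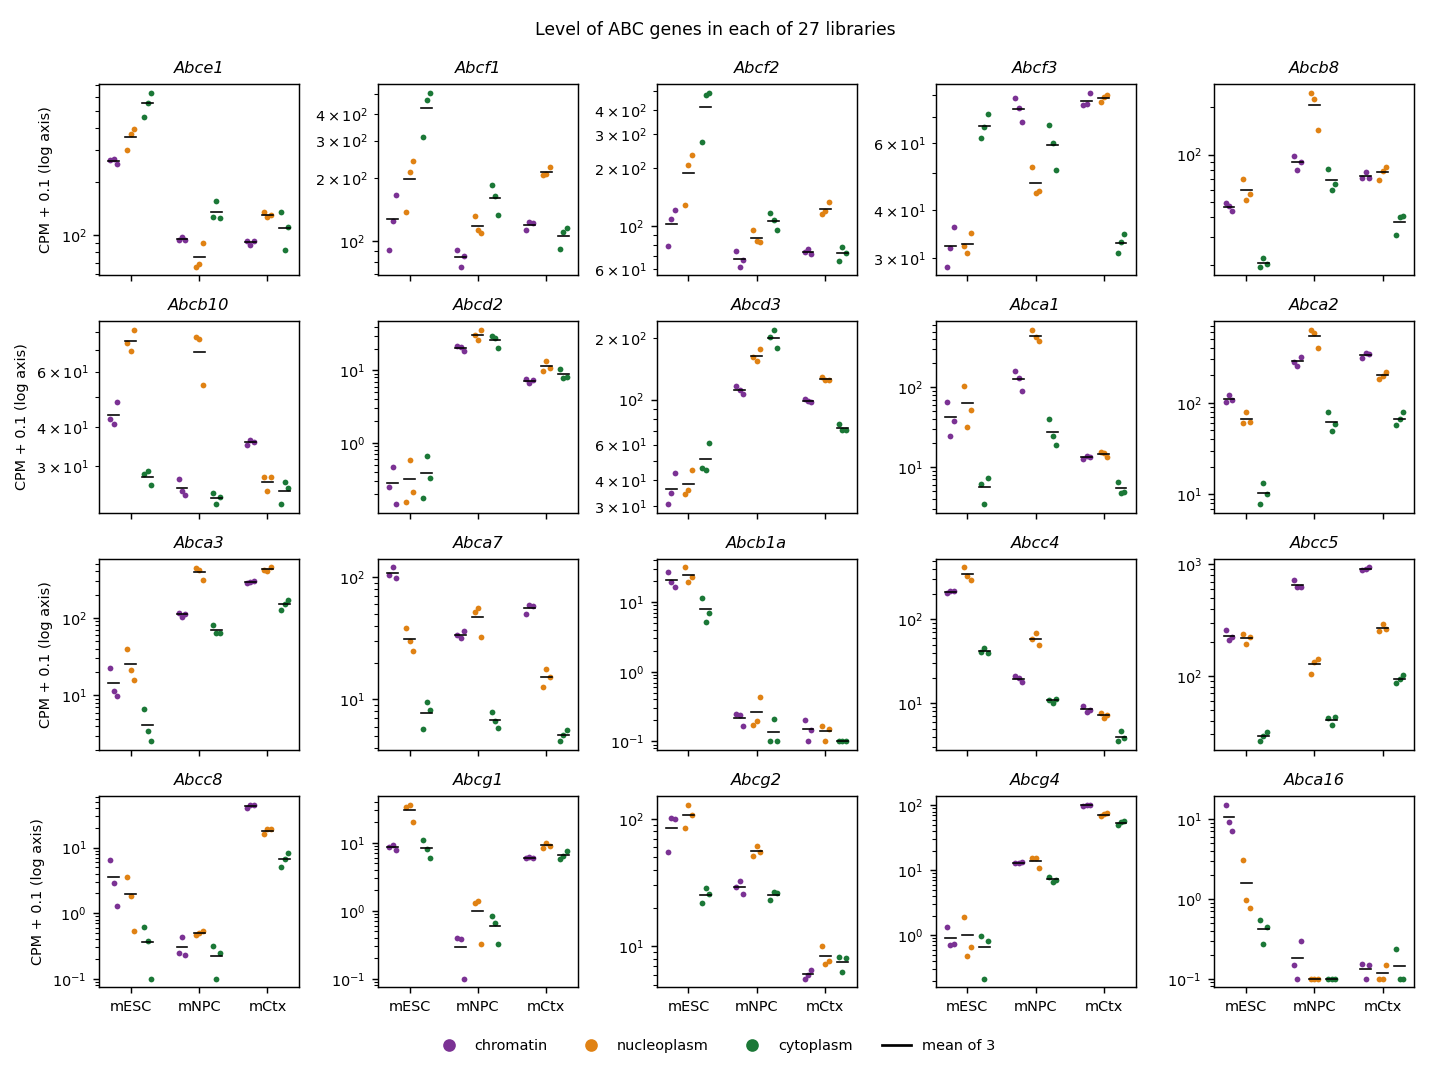
CPM + 0.1 on a log axis for 20 ABC transporter genes in the 27 libraries, 1 point a library, with the mean of 3 libraries as a line and the fraction in colour. Abcc5, Abca2 and Abca7 lie higher in chromatin than in cytoplasm in all 3 cell types, and Abce1 and Abcf2 lie lower in chromatin than in cytoplasm in mESC.

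Chromatin and nucleoplasm differed for fewer members, and in different directions by cell type. In mESC 6 members were higher in chromatin and 2 lower, beside 16% and 17.4% of all genes tested. In mNPC 3 were higher and 10 lower, beside 22.7% and 21.7%, and in mCtx 10 were higher and 0 lower, beside 17.4% and 16.1%. The 10 members lower in mNPC chromatin included the mitochondrial Abcb10 at -1.44 ± 0.12 and Abcb8 at -1.20 ± 0.16 (SE, edgeR), and 3 of 6 lysosomal members, Abca3, Abca5 and Abcb6. Abcc5 went the other way in mNPC, at 2.37 ± 0.13. In mCtx the members higher in chromatin included Abca7 (1.88 ± 0.20), Abcc5 (1.76 ± 0.13), Abcd4 (1.64 ± 0.18) and Abcc10 (1.42 ± 0.19). The mNPC split moved to 8 higher and 4 lower with library totals, under which the median of all genes was 0.65, and to 13 higher and 0 lower on deposited TPM. Without a minimum fold change the counts were 9 higher and 12 lower in mESC, 6 and 20 in mNPC and 15 and 6 in mCtx. The direction of this comparison over the family thus depended on the scaling in mNPC and on the fold minimum in mESC.

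The chromatin-to-cytoplasm ratio itself differed between cell types for part of the family. From mESC to mNPC the ratio of 4 members was called higher and that of 14 lower, beside 10.3% and 17.7% of all genes tested, with a median of -1.04 over members and -0.19 over all genes. Among the 14 were 5 lysosomal, 3 sterol, 3 drug and 2 less characterised members. Abcb6 changed most among members at 5 CPM or more: it stood at 32.7, 34.3 and 30.6 CPM in mESC chromatin and 5.89, 4.97 and 5.07 CPM in mESC cytoplasm, but at 54.2, 47.1 and 46.2 against 34.6, 26.9 and 34.9 CPM in mNPC. Chromatin lay above cytoplasm in both, and the ratio was lower in mNPC, at -2.0 ± 0.23 (SE, edgeR adjusted p = 1.3e-07). For Abca5 the chromatin libraries stood at 23.4, 14.3 and 11.3 CPM in mESC and 10.4, 11 and 9.79 CPM in mNPC, and cytoplasm at 2.43, 1.52 and 1.11 against 4.69, 3.03 and 2.61 CPM. The change of its ratio was -1.73 ± 0.43 (adjusted p = 0.00212), and -0.35 and not called on deposited TPM. Ratios of the soluble Abcf3 and Abcf2 were higher in mNPC, by 1.35 ± 0.17 (adjusted p = 3.1e-07) and 1.34 ± 0.28 (adjusted p = 2.9e-04). In Abcf3 this followed from chromatin, at 28.4, 31.8 and 36.2 CPM in mESC and 78.4, 74.1 and 67.9 CPM in mNPC, while cytoplasm overlapped. In Abcf2 it followed mainly from cytoplasm, at 272, 476 and 490.3 CPM in mESC and 117, 107 and 95.8 CPM in mNPC. The ratio of Abcc5 was also higher in mNPC (1.04 ± 0.18).

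From mNPC to mCtx 6 members had a higher chromatin-to-cytoplasm ratio and 1 a lower one, beside 7.68% and 11.4% of all genes tested. Abcd4 stood at 58.3, 48.4 and 57.1 CPM in mNPC chromatin and 21.4, 18.4 and 19.1 CPM in cytoplasm, and at 44.7, 48.9 and 47.6 against 5.19, 5.08 and 4.97 CPM in mCtx. Its chromatin libraries overlapped between the cell types and its cytoplasm libraries did not, and the ratio was higher in mCtx by 1.74 ± 0.26 (SE, edgeR adjusted p = 9.8e-06). Abca4, the retinal phospholipid flippase, stood at 0.904, 1.37 and 1.68 CPM in mNPC chromatin against 1.51, 1.27 and 1.49 CPM in cytoplasm, and at 5.07, 5.57 and 5.76 against 0.546, 0.705 and 0.866 CPM in mCtx. The fractions overlapped in mNPC and not in mCtx, and the ratio was higher by 3.04 ± 0.64 (adjusted p = 5.6e-04). On deposited TPM the same shift was -0.24, since Abca4 had 15.2 ± 0.555, 14.4 ± 3.35 and 14 ± 0.484 TPM (SD, n = 3) in chromatin, nucleoplasm and cytoplasm of mCtx. Abca8b had a lower ratio in mCtx, at -1.22 ± 0.42 (adjusted p = 0.0273); in mCtx it stood at 12.6, 12.4 and 11.1 CPM in chromatin and 4.1, 1.96 and 2.92 CPM in cytoplasm. That call was lost without any 1 of 5 libraries, with values of -0.96 to -1.19.

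**Figure D4:**
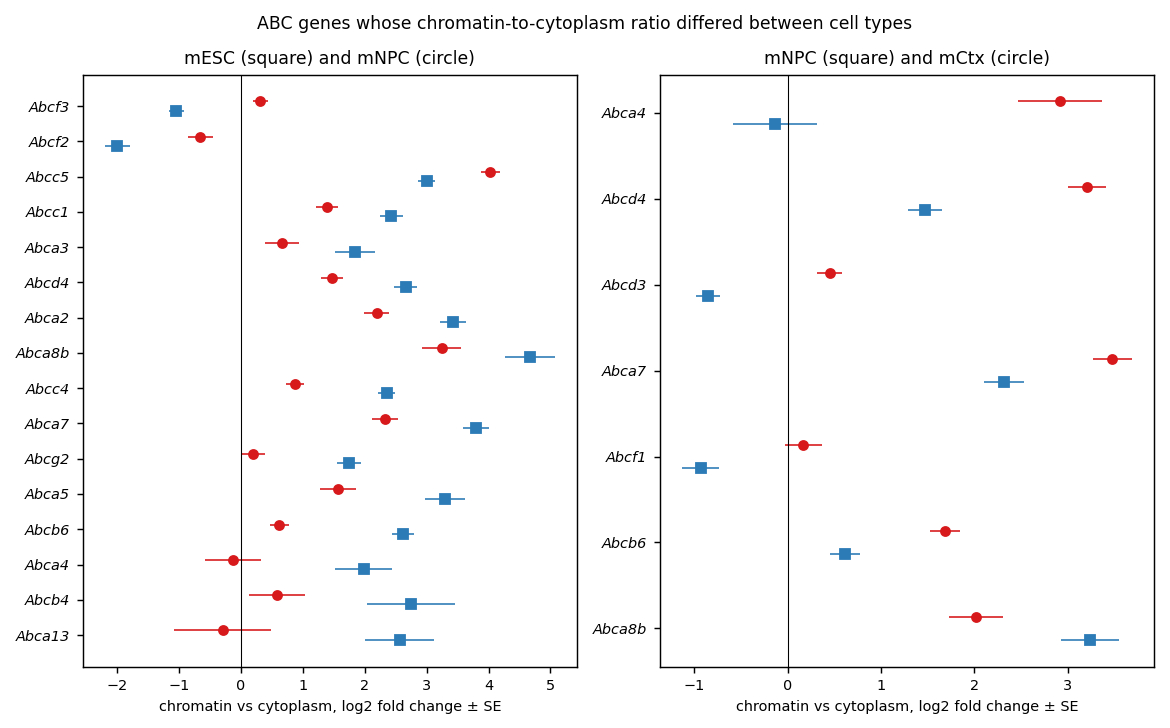
Chromatin-to-cytoplasm log2 fold change of members whose ratio was called different between mESC (squares) and mNPC (circles) and between mNPC (squares) and mCtx (circles), with bars of 1 SE. Most circles lie left of the squares in the first panel, and 6 of 7 lie right of them in the second, of which the Abca4 shift reversed on deposited TPM.

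Cytoplasmic levels differed between cell types in both directions, in shares near those of all genes. Between mESC and mNPC cytoplasm 17 members were higher in mNPC and 13 lower, beside 29.8% and 29.6% of all genes tested, and between mNPC and mCtx 12 were higher in mCtx and 10 lower, beside 24.4% and 20.0%. Median changes were 0.08 and 0.26, and 0.07 in the second with low-count genes set at the limit that 3 counts over a group allow. In bulk RNA such as this, fewer cells of a type and less RNA in each cell cannot be told apart. By role, mNPC was higher than mESC for 3 of 3 peroxisomal and 5 of 6 lysosomal members and for 1 of 12 drug exporters. It was lower for 3 of 4 soluble factors and 6 of 12 drug exporters.

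The peroxisomal Abcd2 and Abcd3 were both higher in mNPC. Abcd2 stood at 0.0737, 0.565 and 0.233 CPM in mESC cytoplasm, 29.6, 28.2 and 20.2 CPM in mNPC and 10.4, 7.8 and 7.93 CPM in mCtx. Abcd3 stood at 46, 44.7 and 61.3 CPM, 203, 219.9 and 179 CPM and 75.7, 70.8 and 70.8 CPM in the same order. Both were highest in mNPC without overlap, by 6.38 ± 0.39 (SE, edgeR adjusted p = 5.6e-14) and 1.99 ± 0.14 (adjusted p = 8.4e-13) over mESC. Abcd2 and Abcd3 were lower in mCtx than in mNPC, at -1.59 ± 0.27 and -1.47 ± 0.14. The chromatin libraries gave 6.68 ± 0.40 and 1.62 ± 0.14 between mESC and mNPC, both called. The partner gene Hsd17b4, which codes for an enzyme of peroxisomal beta-oxidation, was higher in mNPC cytoplasm by 1.10 ± 0.13 and lower in mCtx, at -2.72 ± 0.14. In all, 4 of 6 peroxisome genes of that list were higher in mNPC and 0 lower, beside 29.8% and 29.6% of all genes tested. The summed levels of the 5 astrocyte and 6 oligodendrocyte lineage markers moved with these genes (816 to 1098 and 2735 to 2858 CPM in mNPC cytoplasm against 301 to 312 and 264 to 316 CPM in mCtx), no marker being at 0 in mNPC or mCtx, and their part in the result was not tested.

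Soluble factors were lower in mNPC cytoplasm than in mESC. Abce1 stood at 465, 555 and 635 CPM in mESC, 127, 155 and 124 CPM in mNPC and 135, 82.6 and 110.4 CPM in mCtx, a change of -2.03 ± 0.16 into mNPC (SE, edgeR adjusted p = 8.0e-12) and of -0.31 ± 0.15 into mCtx. The mESC libraries lay above all others, and mNPC and mCtx overlapped. Abcf2 and Abcf1 were lower in mNPC than in mESC, at -1.95 ± 0.20 and -1.42 ± 0.20, and Abcf3 stood at -0.16 ± 0.12. Of 6 tested genes for ribosome recycling and translation termination, 4 were lower in mNPC cytoplasm and 0 higher, beside 29.6% and 29.8% of all genes tested. Among the 4 were the release factor genes Etf1 (-2.0 ± 0.15) and Gspt1 (-1.57 ± 0.19). Between chromatin and cytoplasm of mESC that list had 4 lower and 0 higher, beside 21.6% and 34.4% of all genes tested. There Etf1 stood at -1.91 ± 0.15 and Gspt1 at -1.56 ± 0.19.

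Of the mitochondrial members, Abcb8 was higher in mNPC cytoplasm (81, 59.6 and 64.9 CPM) than in mESC (19.4, 22 and 20.2 CPM) by 1.74 ± 0.17 (SE, edgeR adjusted p = 7.1e-10). The groups did not overlap. Abcb10 stood at -0.22 ± 0.12 in that comparison and at 0.07 ± 0.12 from mNPC to mCtx.

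Of 6 lysosomal members, 5 were higher in mNPC than in mESC cytoplasm by counts, beside 29.8% of all genes tested. The astrocyte and oligodendrocyte lineage markers were higher there too (816 to 1098 CPM against 18.2 to 32.5, and 2735 to 2858 against 5.36 to 12.8), and their part was not tested. Abca3, best known from surfactant lamellar bodies of the lung, stood at 6.56, 3.33 and 2.45 CPM in mESC cytoplasm, 81.8, 62.9 and 64.5 CPM in mNPC and 127, 149 and 169.7 CPM in mCtx. The 3 cell types did not overlap, with 4.11 ± 0.34 from mESC to mNPC (SE, edgeR adjusted p = 1.9e-11) and 1.09 ± 0.28 from mNPC to mCtx (adjusted p = 0.00133). Abcb9 showed the same order, at 3.70 ± 0.49 and 2.33 ± 0.32, and so did Abca5 by counts, at 1.08 ± 0.34 and 2.17 ± 0.29. By deposited TPM Abca5 stood at 0.473 ± 0.168 in mESC and 0.543 ± 0.218 in mNPC cytoplasm (SD, n = 3), which overlap, and at 2.37 ± 0.598 in mCtx. Abca2 and Abcb6 were higher in mNPC than in mESC (2.59 ± 0.21 and 2.60 ± 0.18) and stood at 0.12 ± 0.19 and -0.06 ± 0.16 from mNPC to mCtx. The exception was Abcd4, at 21.4, 18.4 and 19.1 CPM in mNPC and 5.19, 5.08 and 4.97 CPM in mCtx, which was lower in mCtx, at -1.95 ± 0.19 (adjusted p = 1.2e-09).

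The cholesterol exporters took different courses. Abcg1 stood at 11, 8.02 and 5.88 CPM in mESC cytoplasm, 0.732, 0.551 and 0.224 CPM in mNPC and 5.67, 6.39 and 7.39 CPM in mCtx. It was lowest in mNPC without overlap, with -3.93 ± 0.39 from mESC (SE, edgeR adjusted p = 8.4e-10) and 3.59 ± 0.39 into mCtx (adjusted p = 7.3e-09). Abca1 was the reverse, at 6.11, 3.33 and 7.1 CPM in mESC, 39.9, 24.2 and 18.6 CPM in mNPC and 6.42, 4.68 and 4.79 CPM in mCtx, highest in mNPC without overlap, with 2.33 ± 0.38 (adjusted p = 4.2e-06) and -2.40 ± 0.38 (adjusted p = 3.6e-06). Abcg4, known from neurons, stood at 0.884, 0.113 and 0.699 CPM, 7.88, 6.44 and 7.08 CPM and 49.1, 54.6 and 57.9 CPM in the same order of cell types. It rose at both steps without overlap, by 3.71 ± 0.37 (adjusted p = 1.2e-09) and 2.91 ± 0.26 (adjusted p = 1.6e-10). Among 11 sterol regulators and partners, 6 were higher in mNPC than in mESC cytoplasm and 1 lower, beside 29.8% and 29.6% of all genes tested. There the apolipoprotein gene Apoe stood at 2.68 ± 0.44 and Srebf2, a regulator of cholesterol synthesis, at 1.22 ± 0.16. From mNPC to mCtx 2 of the 11 were higher and 3 lower, beside 24.4% and 20.0%, with Apoe at -2.98 ± 0.45. The astrocyte markers moved with Abca1 as they did with the peroxisomal members, and their part was not tested.

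Several drug exporters were highest in stem cells. Abcb1a, a P-glycoprotein gene, stood at 11.3, 5.02 and 6.81 CPM in mESC cytoplasm and at 0, 0.11 and 0 CPM in mNPC, and was at 0 in all 3 mCtx libraries. With 2 counts over the mNPC group no fold is given, and the edgeR test called it lower there (adjusted p = 2.6e-11). Its neighbour on chromosome 5, Abcb1b, with which Abcb1a shares 16.3% of its stretches of 50 bases, was lower at both steps, at -1.53 ± 0.25 and -1.60 ± 0.30 (SE). Abcc4 was also lower at both steps, at -1.98 ± 0.14 and -1.45 ± 0.16. Abcg2 stood at 21.7, 28.7 and 25.6 CPM in mESC, 22.9, 26.8 and 26.2 CPM in mNPC and 8.12, 6.19 and 7.98 CPM in mCtx, so mESC and mNPC overlapped and mCtx was lower than mNPC, at -1.77 ± 0.20 (adjusted p = 2.1e-08). In chromatin Abcg2 was already lower in mNPC than in mESC, at -1.55 ± 0.19. Abcc5 and Abcc1 were higher in mCtx cytoplasm than in mNPC, by 1.23 ± 0.13 and 1.07 ± 0.18. Since P-glycoprotein and Abcg2 are known from brain endothelium, the 6 endothelial markers are given: they summed to 28.3 to 46.2 CPM in mESC cytoplasm, with Cdh5 and Slco1a4 at 0 and Pecam1 at a mean of 33.4 CPM. They summed to 0.11 to 0.473 CPM in mNPC, with Cldn5, Cdh5 and Slco1a4 at 0, and to 1.14 to 1.96 CPM in mCtx. Their part in the result was not tested.

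The KATP subunit Abcc8 was highest in the neurons. It stood at 0.516, 0.282 and 0 CPM in mESC cytoplasm, 0.215, 0 and 0.149 CPM in mNPC and 5.05, 6.54 and 8.25 CPM in mCtx, higher in mCtx than in mNPC by 5.64 ± 0.71 (SE, edgeR adjusted p = 1.1e-07). In chromatin it stood at 40.7, 44.1 and 45.4 CPM in mCtx, 0.151, 0.33 and 0.134 CPM in mNPC and 6.33, 2.77 and 1.21 CPM in mESC, so mCtx lay above both, and mNPC below mESC. Its pore partner Kcnj11 was also higher in mCtx cytoplasm, by 4.32 ± 0.37, but was lower in mCtx chromatin than in cytoplasm (-1.72 ± 0.30), where Abcc8 was higher in chromatin.

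Most of the less characterised A subfamily members lie in a pair of gene rows, Abca13 and Abca17 being outside them. Abca8b, Abca8a, Abca9, Abca6 and the lysosomal Abca5 lie in a row on the minus strand of chromosome 11 (chr11:109932190-110337716). Abca9 stood at 0 in 3 mESC cytoplasm libraries, at 0.689, 0.661 and 0.671 CPM in mNPC and at 4.85, 5.64 and 5.24 CPM in mCtx, with 2.95 ± 0.34 from mNPC to mCtx (SE, edgeR adjusted p = 4.0e-08). Abca8a and Abca5 were higher at that step too, by 2.82 ± 0.31 and 2.17 ± 0.29, while Abca6 stood at 0.64 ± 0.51 and Abca8b at 0.92 ± 0.32. From mESC to mNPC all 5 were called higher in cytoplasm by counts, beside 29.8% of all genes tested. The Abca5 levels of these groups overlapped on deposited TPM. Abca6, Abca8a and Abca9 were at 0 in mESC cytoplasm. Their rises were thus at least 2.49, 3.14 and 3.45 on the log2 scale at the 3-count limit over the group. In chromatin Abca8b already stood at 8.28, 7.26 and 6.84 CPM in mESC, where Abca8a, Abca9 and Abca6 had means of 0.0623, 0.0285 and 0.202 CPM. Another row, Abca14, Abca15 and Abca16 on the plus strand of chromosome 7 (chr7:120203961-120544813), was read almost only in mESC: in chromatin Abca16 had a mean of 10.4 ± 4.19 and Abca14 of 1.06 ± 0.162 CPM (SD, n = 3), against 0.0838 ± 0.105 and 0 in mNPC.

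**Figure D5:**
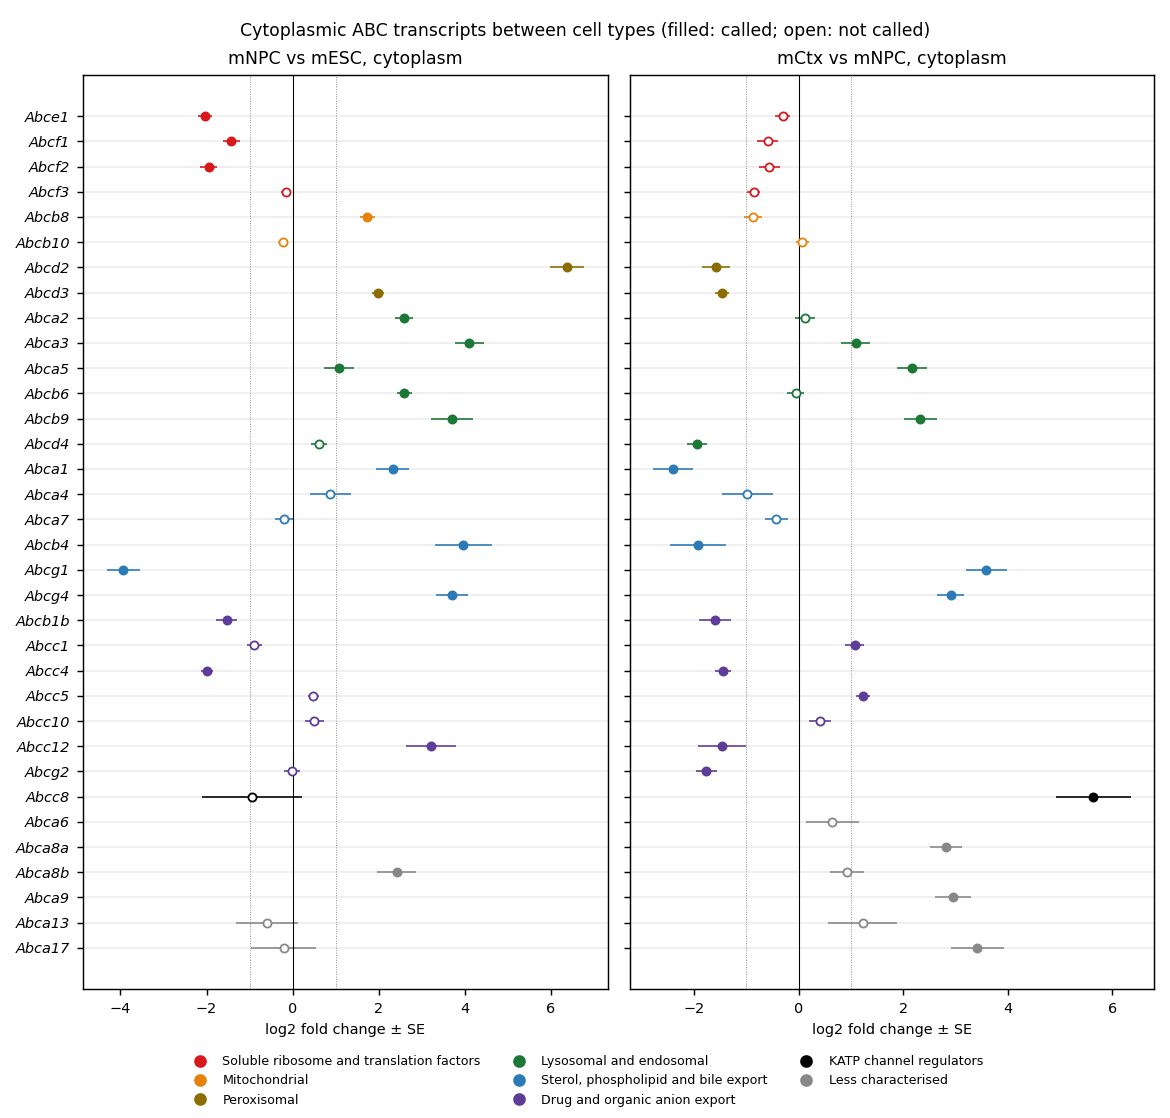
Log2 fold change in cytoplasm of the ABC transporter genes between mNPC and mESC and between mCtx and mNPC, by role, with bars of 1 SE; filled points are called and members with a compared group at or under 3 counts are left out. Abcd2 and Abcd3 lie above 0 in the first comparison (6.38 and 1.99) and below 0 in the second (-1.59 and -1.47).

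Chromatin gave a similar count of calls between cell types. From mESC to mNPC 16 members were higher and 18 lower in chromatin, beside 25.3% and 31.9% of all genes tested, and from mNPC to mCtx 12 were higher and 8 lower, beside 23.5% and 21.4%. Drug exporters had 2 higher and 9 lower of 12 at the first step, led by Abcb1a at -7.30 ± 0.48 and Abcc4 at -3.46 ± 0.15 (SE, edgeR), and 1 higher and 5 lower at the second. Abcf3 was higher in mNPC chromatin than in mESC by 1.19 ± 0.12, and at 0.96 without the 3 mESC libraries numbered 1 it was no longer called.

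A family of membrane transporters with other mechanisms, the 96 solute carrier genes Slc1 to Slc9, is set beside for scale. Of 85 tested, 64, 33 and 30 were higher in chromatin than in cytoplasm in mESC, mNPC and mCtx and 2, 2 and 6 lower. Of all genes tested, 34.4%, 27.5% and 26.2% were higher and 21.6%, 21.3% and 24.4% lower. Medians were 2.49, 1.04 and 0.57, against 2.37, 0.79 and 0.97 for the ABC genes. In nucleoplasm 67, 52 and 11 of the 85 solute carrier genes were higher, beside 27.5%, 16.4% and 11.7% of all genes tested. Their medians were 2.66, 1.90 and 0.25, against 2.27, 1.49 and 0.80 for the ABC genes. The difference between the families was not tested. The 39 tested genes of the partner lists are mostly enzymes, regulators and soluble factors. In chromatin they had 10, 7 and 7 higher and 9, 14 and 10 lower, beside the same chromatin shares of all genes.

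Transcript length went with the fraction ratio across members in stem cells. Over 41 members with more than 3 counts in both groups, the nucleoplasm-to-cytoplasm log2 fold change in mESC had a Pearson r of 0.61 and a Spearman rho of 0.59 with the log10 length of the merged exons. In mNPC the values were 0.32 and 0.32 (n = 36) and in mCtx -0.10 and 0.10 (n = 39). For chromatin over cytoplasm they were 0.49 and 0.48 in mESC, 0.21 and 0.28 in mNPC and 0.18 and 0.22 in mCtx. With the log10 length of the whole gene span, the nucleoplasm values were 0.41 and 0.38, 0.20 and 0.22, and -0.22 and 0.00 in that order. The chromatin values with the gene span were 0.39 and 0.31, 0.11 and 0.18, and -0.05 and 0.08. Members are not independent replicates and share the same libraries, so these are descriptions across genes. The merged exons held 2569 bases in Abcf2, 6004 in Abce1, 10363 in Abca1 and 15092 in Abcc1.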

How the data were processed

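Polyadenylated RNA of 27 libraries was sequenced as 100 bp stranded read pairs, per the labels' protocols. The deposited counts are whole numbers of reads per gene for 37332 genes, and the deposited TPM values cover 53379 genes. The length deposited beside the counts equals the whole gene span, introns included, for all 37332 genes. Whether reads in introns were counted is not given in the sources used here, and their part in the fraction ratios was not tested. STAR, featureCounts, kallisto 0.43.0 and mm10 are named in the submitters' processing notes; which options, strand setting and annotation release were used is not given in the sources used here. Columns of the chromatin libraries, deposited in the same table, hold whole-number counts as the other columns do and were analysed with them. Gene names came from GENCODE M21 by identifier.

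The count tests used edgeR 4.0.16 under R 4.3.3: TMM scaling, filterByExpr on the 9 groups, a single quasi-likelihood fit to the 27 libraries with 9 group means, and Benjamini-Hochberg adjustment over the 18226 genes tested in each of 15 contrasts. A gene was called at an adjusted p under 0.05 and a log2 fold change of at least 1 in size. The chromatin-to-cytoplasm shift is the interaction of cell type and fraction. CPM is the count per 1000000 of the TMM-scaled library size and ranks no gene against another; TPM, which is set per length, was used for that. A group with 3 or fewer counts over its libraries was set at 3 counts over the group for a bound. Alternatives used limma 3.58.1 on log2(TPM + 1), for genes with a TPM of at least 1 in 3 libraries, and DESeq2 1.42.0, and other scalings, filters and left-out libraries. The fit was tested on simulated counts for mESC chromatin against cytoplasm over 17101 genes. In these, 50 genes with a mean over 5 CPM were changed at each of -2, -1.5, 1.5 and 2 on the log2 scale. All other genes had the same mean in every group. The fit recovered 100%, 100%, 96% and 98% of the changed genes and called 8 of 16901 unchanged genes. In the data 34.4% of genes were called higher and 21.6% lower in this comparison, so scaling under such wide change was not tested.

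The members, roles and partner lists were chosen with earlier results of these data known. Library values are given for the 3 called members of largest change in each direction of a fraction or cytoplasm comparison (2 for a shift), whose mean reached 5 CPM in one of the groups and, for the former, no overlap of libraries, and for soluble, mitochondrial and peroxisomal members. From a partner list the 2 genes with the highest mean CPM were named. A few genes these rules select are not reported here, in text or figures; the counts include them. Deviations of same-numbered libraries from their group means correlated at 0.31 to 0.716 in mESC (9 of 9 pairs over 0.1), -0.117 to 0.253 in mNPC (4 of 9) and 0.0272 to 0.137 in mCtx (5 of 9). The numbers thus pair fractions clearly in mESC only. In mCtx, libraries of unlike number correlated at -0.0874 to -0.027 between chromatin and cytoplasm. Between mCtx chromatin and nucleoplasm they reached 0.0314, so a weak pairing in mCtx is possible. Fractions were compared without a block, and the block is an alternative.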

Additional observations from a re-analysis of the deposited data

Results flagged for a closer look

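In 7 members the chromatin-to-cytoplasm ratio differed between cell types by edgeR's test of the difference itself, and these are up to 2 in each direction of each comparison, those of largest size among members whose mean reached 5 CPM in one of the groups. Between mESC and mNPC the log2 ratio was higher in mNPC for Abcf3, by 1.35, and for Abcf2, by 1.34. It was lower in mNPC for the porphyrin transporter Abcb6, at -2.0, and for the lysosomal Abca5, at -1.73. Between mNPC and mCtx it was higher in mCtx for Abca4, by 3.04, and for the cobalamin transporter Abcd4, by 1.74, and lower for Abca8b, at -1.22. Each was called over all 18226 genes tested, 18 and 7 of 44 members being called in the 2 comparisons. Of all genes tested, 10.3% were called higher and 17.7% lower in the first comparison, and 7.68% and 11.4% in the second. On deposited TPM the Abca4 difference reversed (-0.24), and those of Abca5 (-0.35) and Abca8b (-0.40) were not called. The Abca8b call was also lost, at -0.96 to -1.19, on leaving out any one of 5 libraries: mCtx chromatin 3, mCtx cytoplasm 1, mNPC chromatin 2 and mNPC cytoplasm 2 or 3. Both comparisons use the same mNPC libraries.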

How the results depend on the processing

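The number of members called stayed within 1.5 times its value in 248 of 258 counts over all alternatives, including 102 of 102 that left out 1 library. These counts join both directions. For chromatin over nucleoplasm in mNPC, 3 higher and 10 lower became 13 and 0 on TPM, within that limit. Of 3146 values of named members, 2979 kept their side of the threshold, with no change of direction where a call was made. Direction was not compared where neither fit made a call. Of the rest, 53 lost a call, 108 gained one and 6 reversed. Leaving out 1 library gave 32 to 36 members called between chromatin and cytoplasm in mESC, 15 to 19 in mNPC and 19 to 21 in mCtx, and 14 to 18 and 6 to 8 for the shifts; 21 of 1248 named values lost their call. With limma on deposited TPM the count was 22 for chromatin and 18 for nucleoplasm over cytoplasm in mESC, 10 for nucleoplasm over cytoplasm and 16 for chromatin over nucleoplasm in mCtx, and 17 for mNPC over mESC cytoplasm, from 38 members tested. TPM also reversed chromatin over cytoplasm of Abcf3 in mESC (0.89), chromatin over nucleoplasm of Abcf3 in mESC (1.29) and mCtx (1.55) and of Abcf1 (1.49) and Abcb8 (0.48) in mNPC, and the Abca4 shift from mNPC to mCtx (-0.24); the cause was not tested. Without a minimum fold change 28 members were called between chromatin and cytoplasm in mNPC, 21, 26 and 21 between chromatin and nucleoplasm in mESC, mNPC and mCtx, and 11 in the shift from mNPC to mCtx. With the replicate block 31 members were higher and 4 lower in mESC chromatin over cytoplasm, and it changed none of 183 named calls. With library totals, 2 members had a higher and 16 a lower ratio from mESC to mNPC, and on TPM 6 and 9; from mNPC to mCtx these were 6 and 2, and 6 and 3. Without the 3 mESC libraries numbered 1, 29 members were higher and 4 lower in mESC chromatin than in cytoplasm, and 4 and 13 in the shift from mESC to mNPC. Members under 1 CPM, such as Abcb5, Abcg3 and Abca14, rest on few counts.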

Other observations

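The count and TPM tables gave different pictures of 2 members, chosen after their values were seen. Abca4 had 0.706 ± 0.16 CPM and 14 ± 0.484 TPM (SD, n = 3) in mCtx cytoplasm, and Abcc6, an exporter linked to ectopic mineralisation, had 0.244 ± 0.193 CPM and 3.06 ± 2.03 TPM in mESC cytoplasm. Abcc12 was the one drug exporter that was higher in mNPC than in mESC cytoplasm, at 0.0737, 0.113 and 0.0582 CPM in mESC, 0.732, 0.881 and 0.894 CPM in mNPC and 0.205, 0.201 and 0.456 CPM in mCtx. Abcb4, the phosphatidylcholine floppase of bile, had its highest cytoplasmic level in mNPC, at 2.93, 2.42 and 2.76 CPM against 0.221, 0.169 and 0.117 CPM in mESC and 0.614, 0.755 and 0.73 CPM in mCtx.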
